A study of Mus musculus with 10 samples.

Results

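The genes described here build, regulate and anchor the actin cytoskeleton of a mouse fibroblast, or are known targets of serum response factor (SRF), the transcription factor that many of them depend on. They were chosen by symbol, as 48 names, and all 48 were found, each on 1 row, among the 17053 genes of the deposited table. The set holds SRF and its coactivator Mkl1 (2 genes), 3 actins and 4 proteins that bind or sever actin monomers and filaments. It also holds 4 proteins that nucleate or elongate filaments, 2 small GTPases (Rhob and Rnd3) and 6 subunits or kinases of myosin II. A group of 11 joins the calponin, tropomyosin and caldesmon families with Lmod1. The rest are 5 crosslinkers, 5 proteins of adhesion sites, 4 LIM domain proteins and 2 linkers to the membrane. RNA was sequenced from wild-type NIH-3T3 cells, an established line of mouse embryonic fibroblasts, in 10 libraries that form 5 groups of 2 replicates, lettered A and B. One group was untreated, 1 received 800 µM uridine for 2 h, and 3 received 800 µM 4-thiouridine (4sU), a uridine analogue built into RNA as it is made, for 2 h. Of the 4sU groups, 1 went to sequencing unconverted. SLAM libraries came from RNA whose thiols had reacted with iodoacetamide (50 °C, 20 min) before a column clean-up. TUC libraries came from RNA exposed to OsO4/NH4C, spelt as in the labels, at 40 °C for 1 h and then precipitated. Reagent, temperature, time and clean-up therefore changed together and cannot be told apart. The study's title asks how the chemistries bias quantification. Here uridine and unconverted 4sU were set against untreated cells, each chemistry against unconverted 4sU, and the chemistries against each other. In bulk RNA, fewer cells of a type and less RNA per cell cannot be told apart, and every level is relative to the rest of its library.

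In fibroblasts, actin exists as monomers and as filaments, and the balance between them feeds back on transcription. Monomers bind the coactivator MRTF-A, encoded by Mkl1, and keep it out of the nucleus; when polymerisation draws the monomers away, MRTF-A is released, joins SRF on a DNA element called the CArG box and raises transcription of actins, myosin light chains, tropomyosins, calponins, vinculin and Srf itself. A second branch, through ternary complex factors, serves immediate-early genes such as Fos and Egr1. The transcripts of such genes span very short-lived regulators and very stable structural mRNAs, which is the property that 4sU labelling reads.

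Promoters with an exact match to the SRF element are shown because they mark which members hold that string close to their start. RefSeq promoters of the GRCm38.p6 assembly, covering 250 bases before to 50 bases after a start, were searched on both strands for the CArG box, a 10-base element with a run of A and T between a CC and a GG. Of the 45 members with an entry, 10 held at least 1 match (22.2%), against 1.81% of the 27025 genes with a promoter of that length. Since genes entered the set partly as known SRF targets, this share is a description, and a match is a string of letters, not a measured site. Only exact matches were taken, so elements that depart from this consensus or lie outside the window were missed. A member without a match may still hold an element. The 3 members without an entry were Actb, Tagln and Diaph1. For Srf and for Actg1, which encodes gamma-actin, the 250 bases before the start are given 5′ to 3′ on the gene's strand, with each exact match in capitals.
Srf, chr17:46556163-46556412, minus strand: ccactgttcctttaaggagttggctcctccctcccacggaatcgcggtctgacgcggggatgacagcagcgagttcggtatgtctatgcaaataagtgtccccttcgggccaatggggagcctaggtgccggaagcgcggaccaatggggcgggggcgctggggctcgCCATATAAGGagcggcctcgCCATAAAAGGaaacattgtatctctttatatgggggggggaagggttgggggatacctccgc
Actg1, chr11:120348496-120348745, minus strand: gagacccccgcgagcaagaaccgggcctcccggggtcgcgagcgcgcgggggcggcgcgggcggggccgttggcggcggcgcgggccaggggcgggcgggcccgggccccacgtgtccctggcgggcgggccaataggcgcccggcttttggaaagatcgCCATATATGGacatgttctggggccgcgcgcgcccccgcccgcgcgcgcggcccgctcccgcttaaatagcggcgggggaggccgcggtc
Srf held 2 matches, whose first bases lie 82 and 62 bases upstream of its start, and Actg1 held 1, which begins 90 bases upstream. For the other 8 genes with a match, the box (in capitals) is given with 15 bases on each side. Rnd3 is a small GTPase, Myl6 and Myl9 are myosin light chains, Cnn2 is a calponin, Lima1 bundles filaments, Vcl is vinculin, and Fhl1 and Fhl2 are LIM-only proteins.
Rnd3, chr2:51149187-51149226, minus strand: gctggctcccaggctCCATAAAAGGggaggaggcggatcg
Myl6, chr10:128493035-128493074, minus strand: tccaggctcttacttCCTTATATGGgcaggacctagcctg
Myl9, chr2:156775288-156775327, plus strand: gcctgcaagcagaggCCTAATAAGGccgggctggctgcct
Cnn2, chr10:79988529-79988568, plus strand: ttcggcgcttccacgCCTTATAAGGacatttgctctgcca
Lima1, chr15:99820172-99820211, minus strand: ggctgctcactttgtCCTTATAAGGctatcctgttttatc
Vcl, chr14:20929156-20929195, plus strand: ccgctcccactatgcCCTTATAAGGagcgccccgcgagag
Fhl1, chrX:56779566-56779605, plus strand: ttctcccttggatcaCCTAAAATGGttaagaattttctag
Fhl2, chr1:43196833-43196872, minus strand: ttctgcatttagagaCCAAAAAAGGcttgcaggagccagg
Fhl2, chr1:43163968-43164007, minus strand: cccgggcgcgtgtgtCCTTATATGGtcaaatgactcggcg
Fhl2 appears with a match at 2 separate starts. The new-to-total RNA ratio of the genes with a box, a second readout described further on, ran from 0.116 ± 0.0176 (SD, n = 2) for Myl6 to 0.994 ± 0.00905 (SD, n = 2) for Rnd3 in SLAM.

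These transcripts were abundant. Gene totals ranged from 27094222 counts (uridine A) to 33785682 counts (untreated B), and the members took between 2.86% and 3.33% of a library, with both SLAM libraries (3.28% and 3.33%) above the other 8. Levels are given as counts per 1000000 counts of a library scaled by edgeR's TMM factors (CPM), and are compared between genes only per kilobase of the deposited gene length. The median member stood at 154 CPM per kb in untreated cells, against 8.58 for all 12218 genes that passed the filter on low counts, a filter that all 48 members passed. Actb, encoding beta-actin, was highest, at 1762 and 1822 CPM per kb in untreated A and B. Actg1 came next at 1442 and 1571, below Actb in both libraries. Acta2, smooth muscle alpha-actin, followed at 708 and 768. Those 3 actin levels did not overlap. The filament-severing Cfl1 had 687 and 564 CPM per kb, which overlapped the 652 and 574 of the monomer-binding Tmsb4x, and the myosin light chain Myl12a had 524 and 484. At the other end, Lmod1, Mylk, Cnn1 and Fhl1, all known best from muscle, lay between 0.226 and 0.339 CPM per kb and held 16 to 82 counts in a library, so their ratios are coarse. The next lowest were Diaph1, a formin that elongates filaments, at 9.06 and 9.72 CPM per kb, and Mkl1, at 9.86 and 10.8. Fractional counts, which can arise when reads are shared between genes, occurred for 45 members in at least 1 library and for Actg1, Myl6, Myl12a and Tpm4 in all 10. Levels of these families, which have close paralogues or processed copies, are therefore uncertain in their split.

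The fibroblast label was checked against markers. Of 12 fibroblast markers, 11 were in the table and all 11 passed the filter, with a summed level of 17395 to 25542 CPM. Epithelial markers (3 of 6 in the table) summed to at most 0.159 CPM and endothelial markers (5 of 5) to at most 1.27 CPM. Macrophage markers (4 of 5) summed to 7.50 to 16.4 CPM, of which Cd68 gave 6.36 to 14.4. Muscle markers (5 of 8) summed to 56.9 to 76.9 CPM, of which Smtn gave 55.6 to 74.4, while Acta1 reached 2.38 CPM, Des 0.376 and Myh11 0.206. The sum of the nuclear RNA list, of which Malat1, Neat1 and Meg3 passed the filter, ranged from 416 CPM in SLAM A to 2363 CPM in unconverted 4sU B.

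**Figure D1:**
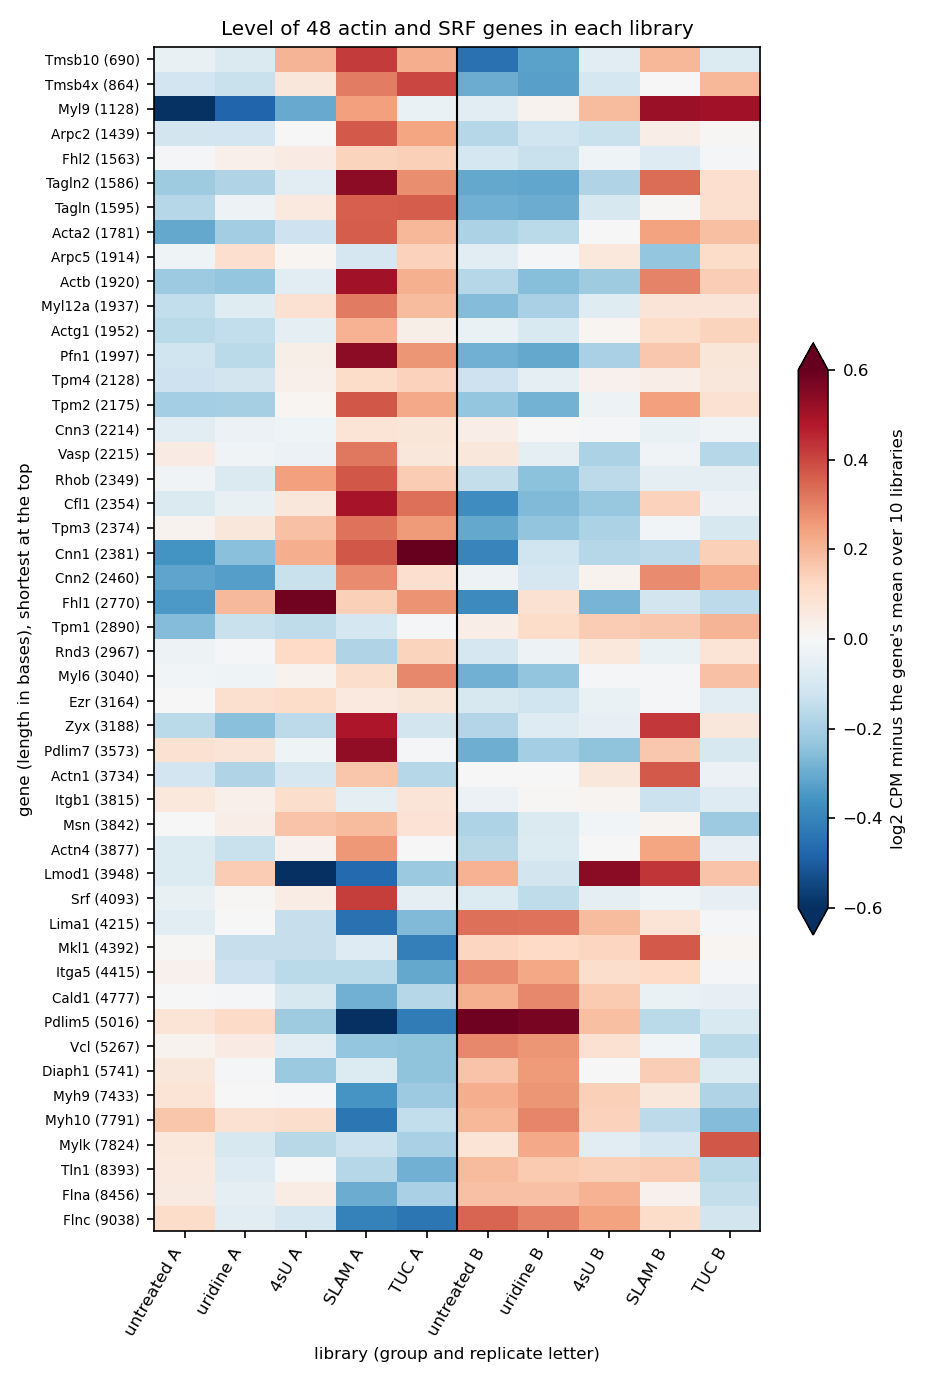
Level of each member in each library as log2 CPM minus that gene's mean over the 10 libraries (colour, limited at 0.6), with genes in rows from the shortest (690 bases) to the longest (9038 bases) and the A libraries left of the black line. Short genes are redder in the SLAM and TUC libraries and long genes bluer, and the long genes are redder in the B libraries than in the A libraries.

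Most members differed in level between the replicate letters. Fitted over all 10 libraries with group as a term, 16 members were higher in B and 19 lower (35 of 48) by edgeR's quasi-likelihood test at an adjusted p under 0.05, where 60.3% of all genes tested passed (31% higher, 29.3% lower). Of those 35, 31 kept one sign in all 5 groups. The letter term was fitted over these same 5 groups, so that count describes the calls and does not replicate them. Leaving out any 1 library left 32 to 36. Counts of untreated A and uridine A differed by 4.30 in chi-square per degree of freedom, against 36.9 to 74.7 between the replicates of a group. Pdlim5, a Z-disc LIM protein, had 229.5 and 325 CPM in untreated A and B, 235 and 322 with uridine and 187 and 246 with unconverted 4sU. B was the higher of each pair, with a log2 difference of 0.43 ± 0.0346 (SE) and an adjusted p of 5.14e-08. Tpm3, a tropomyosin that coats filaments, ran the other way, from 533 CPM in untreated A to 424 in untreated B, at -0.34 ± 0.0317 (SE). The 4 monomer-binding or severing genes were all lower in B: Cfl1 (-0.30), Tmsb10 (-0.29), the profilin Pfn1 (-0.22) and Tmsb4x (-0.21). Pdlim7 (-0.27), Rhob (-0.27), Tagln (-0.23) and Srf (-0.15) were also lower in B. Higher in B were 4 of 5 crosslinkers, among them Lima1 (0.37) and the filamin Flnc (0.36), together with Myl9 (0.46), Lmod1 (0.48), Mkl1 (0.30), Itga5 (0.29), Tpm1 (0.26), Vcl (0.19) and Myh9 (0.20). None of the 3 actins passed, with 95% intervals (estimate ± 1.96 SE) of -0.16 to 0.00 for Actb, -0.05 to 0.11 for Acta2 and -0.03 to 0.13 for Actg1. Here and below such intervals use a normal limit, which makes them somewhat narrower than the quasi-likelihood test would give. The 3 nuclear RNAs that passed the filter were higher in B as well, and their part in these differences was not tested.

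Because many genes differed between the letters across the groups, each comparison was fitted in 2 ways. One fit had group terms alone, and the other added the replicate letter as a block. Without it the members' median SE for SLAM against 4sU was 0.139 on the log2 scale, and with it 0.0598. In edgeR 0 members were called without the block in each of the 6 comparisons, so every rise or fall given below is a call of edgeR's blocked fit. DESeq2 without the block called 7 members for SLAM against 4sU, 2 for TUC against SLAM and 0 in the other 4. For DESeq2, for other scalings and for fits without a library, shares of all genes are not given here. Counts of members from those fits show how far calls depend on the processing and say nothing of members against other genes.

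No member was called after uridine. Compared with untreated cells, 0 of 48 members passed with or without the block (edgeR), 0 reached an unadjusted p under 0.05 in either fit, and DESeq2 called 0; among all genes 0.00818% passed with the block. Over the 44 members with a mean of at least 100 counts, the log2 change ran from -0.11 (Flnc) to 0.10 (Myl9), and every 95% interval lay within -0.24 to 0.26. Srf had 123 and 120.1 CPM in untreated A and B and 128 and 114 with uridine, which overlap. Actb had 3383 and 3499 CPM untreated and 3349 and 3297 with uridine (95% interval of the log2 change -0.18 to 0.08).

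With 4sU and no conversion the largest rise was that of Tmsb10 and the largest fall that of Pdlim5. Against untreated cells 8 members rose and 3 fell with the letter as a block, against 6.97% and 12.9% of all genes (19.9% in either direction). The median member moved by 0.07 on the log2 scale and the median gene by 0.01. Tmsb10, which sequesters actin monomers, went from 344 and 260.3 CPM in untreated A and B to 408 and 339 with 4sU. Within each letter 4sU was higher, though untreated A exceeded 4sU B, and the log2 change was 0.31 ± 0.0552 (SE) with an adjusted p of 0.000835. Pdlim5 went from 229.5 and 325 CPM to 187 and 246, a log2 change of -0.35 ± 0.0543 (SE) with an adjusted p of 0.000267, lower within both letters while the groups overlapped. Rises were also called for Myl9 (0.27), Myl12a (0.21), Tpm2 (0.21), Tagln (0.21), Tmsb4x (0.19), Acta2 (0.19) and the membrane linker Msn (0.17). Falls were called for Diaph1 (-0.23) and for the fibronectin receptor subunit Itga5 (-0.18). Srf, Mkl1, Actb, Actg1, Vcl, Myh9 and Rhob were not called, with log2 changes between -0.14 (Vcl) and 0.13 (Rhob). Without the block edgeR called 0 members (1 with an unadjusted p under 0.05, against 0.164% of all genes called, 0.09% higher and 0.0737% lower) and DESeq2 0. With the block the 11 calls became 3 without untreated A, 9 without untreated B, 2 without 4sU A and 2 without 4sU B, and Pdlim5 and Tmsb10 were called in all 4.

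The comparison of 4sU with uridine shares its 4sU libraries with the one above and asks about the thiol rather than the added nucleoside. Against uridine-treated cells 4 members rose and 2 fell with the block, against 6.48% and 13.3% of all genes (19.7% in either direction). The 4 were Tmsb10 (0.27 ± 0.0552 (SE)), Tpm2 (0.23 ± 0.0526 (SE)), Rhob (0.21 ± 0.0700 (SE)) and Tmsb4x (0.21 ± 0.0533 (SE)). The 2 were Pdlim5 (-0.36 ± 0.0544 (SE)) and Diaph1 (-0.23 ± 0.0622 (SE)). Rhob, a small GTPase found on endosomes, had 133 and 119 CPM in uridine A and B and 168 and 127 with 4sU, so 4sU A stood above the rest and 4sU B lay between the uridine libraries. Without the block edgeR called 0 members (1 with an unadjusted p under 0.05, against 0.254% of all genes called, 0.0982% higher and 0.156% lower) and DESeq2 0. The 6 calls became 1 without uridine A, 2 without uridine B, 2 without 4sU A and 1 without 4sU B, with Pdlim5 called in all 4. Scaling by library totals gave 3 rises and 3 falls.

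**Figure D2:**
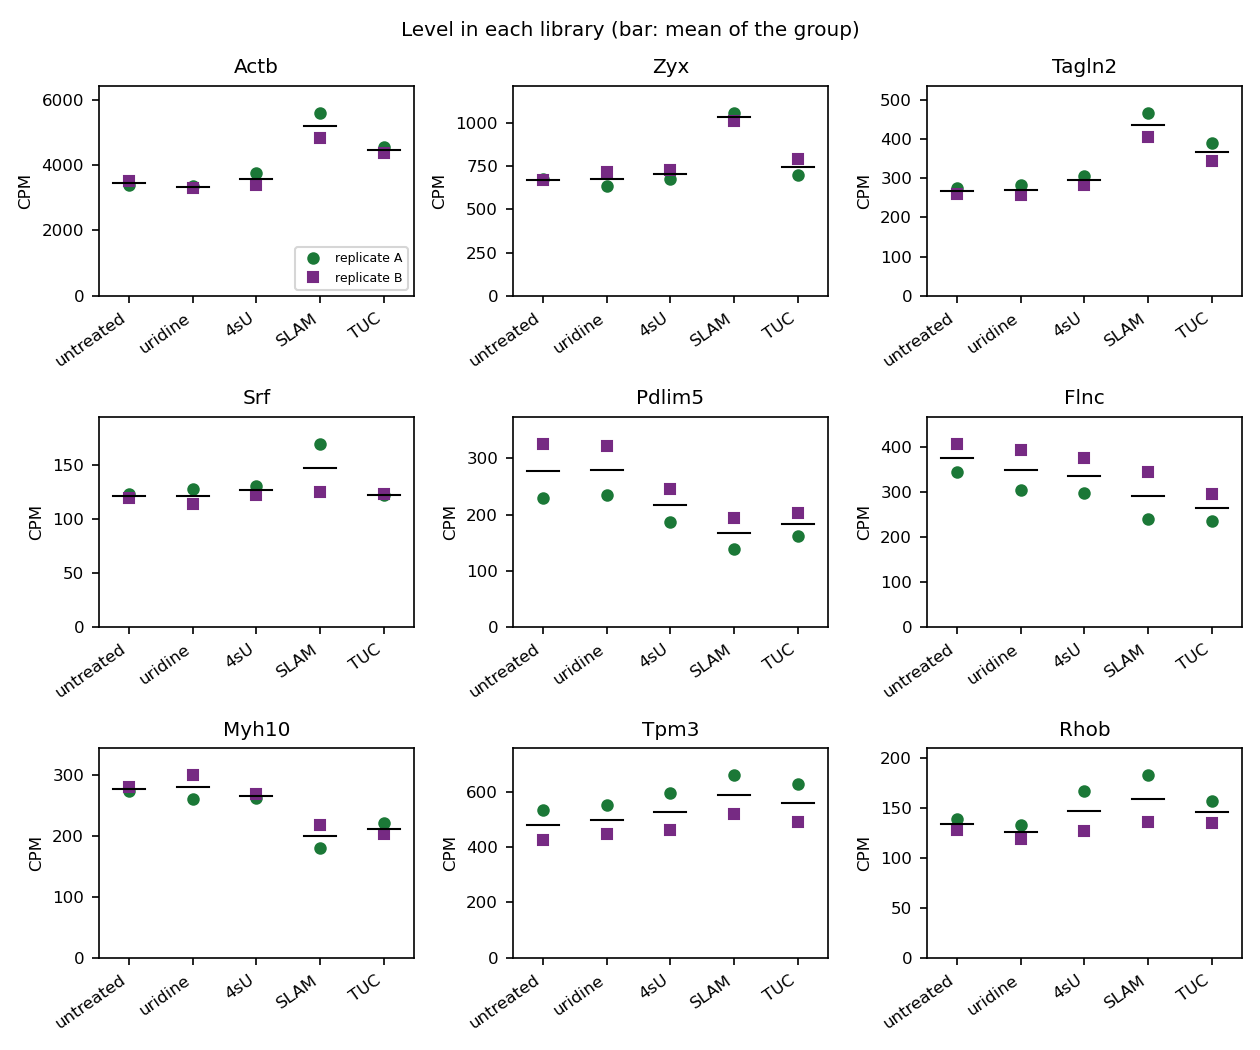
CPM of 9 members in each library, by group, with replicate A as green circles, replicate B as purple squares and a bar at the mean of the 2. Actb, Zyx and Tagln2 are highest in both SLAM libraries, Srf in SLAM A alone, and Pdlim5, Flnc and Myh10 are lower in each converted library than in the untreated library of the same letter.

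SLAM chemistry gave the most calls among the 6 comparisons of groups. With the letter as a block, 21 members rose and 10 fell against unconverted 4sU, where 20% and 21.6% of all genes did (41.6% in either direction), and the median member moved by 0.10 against 0.00 for all genes. All 3 actins rose, as did all 4 monomer-binding or severing genes. So did 5 of the 11 genes in the group that joins the calponin, tropomyosin and caldesmon families with Lmod1. Zyx, encoding the focal adhesion protein zyxin, went from 677 and 728 CPM in unconverted 4sU A and B to 1055 and 1014. Both SLAM libraries stood above every other library of the series, and the log2 change was 0.56 ± 0.0629 (SE) with an adjusted p of 8.95e-06. Tagln2, a transgelin, went from 306 and 283 CPM to 465 and 404, a log2 change of 0.56 ± 0.0513 (SE) with an adjusted p of 2.18e-06. Actb went from 3754 and 3397 CPM to 5578 and 4835, a log2 change of 0.54 ± 0.0649 (SE) with an adjusted p of 1.53e-05. For both genes the SLAM libraries were the highest pair. Further rises were Pdlim7 (0.48), Myl9 (0.44), Pfn1 (0.43), Cfl1 (0.40), Acta2 (0.37), Tagln (0.20) and Actg1 (0.19). The other 11 rises lay between 0.16 (Tpm3) and 0.34 (Cnn2).

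Myosin heavy chain and filamin transcripts were among those that fell in the same comparison. Myh10, the heavy chain of nonmuscle myosin IIB, went from 263 and 269 CPM in unconverted 4sU A and B to 181 and 219 after SLAM. The groups did not overlap, and the log2 change was -0.41 ± 0.0730 (SE) with an adjusted p of 0.000340. Pdlim5 (-0.38), the filamins Flna (-0.26) and Flnc (-0.21), Lima1 (-0.21), the myosin IIA heavy chain Myh9 (-0.21), Arpc5 (-0.20) and Rnd3 (-0.20) also fell, as did Cald1 and Itgb1. Srf had 131 and 122 CPM without conversion and 169.5 and 125 after SLAM, so the difference sat in A, where it was 0.37, and not in B, where it was 0.03. Its log2 change of 0.21 ± 0.0794 (SE) passed at an adjusted p of 0.0465 with the block, and was -0.016 without SLAM A in the fit without the block. Mkl1 (0.16), Rhob (0.12) and Vcl (-0.13) were not called. Without the block edgeR called 0 members, with 13 at an unadjusted p under 0.05, against 0.344% of all genes called (0.327% higher, 0.0164% lower), and the smallest adjusted p was 0.0782; DESeq2 called Acta2, Actb, Actn4, Tagln2, Tpm2 and Zyx higher and Myh10 lower. The 31 calls became 17 without 4sU A, 18 without 4sU B, 21 without SLAM A and 34 without SLAM B. Called in all 4 of these fits were 16 members: Acta2, Actb, Actn1, Actn4, Arpc2, Cfl1, Cnn2, Myh10, Myl9, Pdlim5, Pdlim7, Pfn1, Tagln2, Tmsb10, Tpm2 and Zyx. Nuclear RNAs were lower after SLAM for all 3 that were tested, with Malat1 at 477 and 1122 CPM in unconverted 4sU A and B and 173 and 361 in SLAM. Of 11 fibroblast markers, 6 were higher and 1 lower. Their part in the members' changes was not tested.

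TUC chemistry moved fewer members, with 12 rising and 7 falling against unconverted 4sU, where 11.6% and 14.2% of all genes did (25.8% in either direction). The rises held 2 of 3 actins and 3 of 4 monomer-binding or severing genes. They also held 4 of the 11 genes in the group of calponin, tropomyosin and caldesmon families with Lmod1. The falls held 2 of 5 crosslinkers and 2 of 5 adhesion genes. The median member moved by 0.05 and the median gene by 0.01. Actb stood at 4564 and 4369 CPM in TUC A and B against 3754 and 3397 without conversion, clear of the unconverted pair, with a log2 change of 0.32 ± 0.0648 (SE) and an adjusted p of 0.00271. Tmsb4x went from 639 and 566 CPM to 805 and 698, a log2 change of 0.32 ± 0.0532 (SE), and Tagln2 from 306 and 283 to 389 and 343, a change of 0.31 ± 0.0514 (SE). Neither pair of groups overlapped. Myl9 (0.29), Acta2 (0.25), Tagln (0.25), Pfn1 (0.25) and Myl6 (0.23) rose, and the remaining 4 rises lay between 0.17 (Tpm2) and 0.23 (Cfl1). Flnc fell from 297 and 376 CPM to 236 and 295, again without overlap, with a log2 change of -0.34 ± 0.0608 (SE) and an adjusted p of 0.00126. Myh10 (-0.32), the integrin activator Tln1 (-0.29), Flna (-0.29), Myh9 (-0.26), Pdlim5 (-0.24) and Vcl (-0.21) fell too. Srf (-0.04), Mkl1 (-0.19), Rhob (0.00) and Actg1 (0.11) were not called. Without the block edgeR called 0 members, with 4 at an unadjusted p under 0.05 and 0 genes called in all, and DESeq2 called 0. The 19 calls became 4 without 4sU A, 10 without 4sU B, 12 without TUC A and 4 without TUC B, with Flnc, Tagln2 and Tmsb4x called in all 4. Scaling by library totals gave 11 rises and 10 falls. Fibroblast markers had 2 of 11 higher and 3 lower, and 1 of 3 nuclear RNAs was lower, and their part was not tested.

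**Figure D3:**
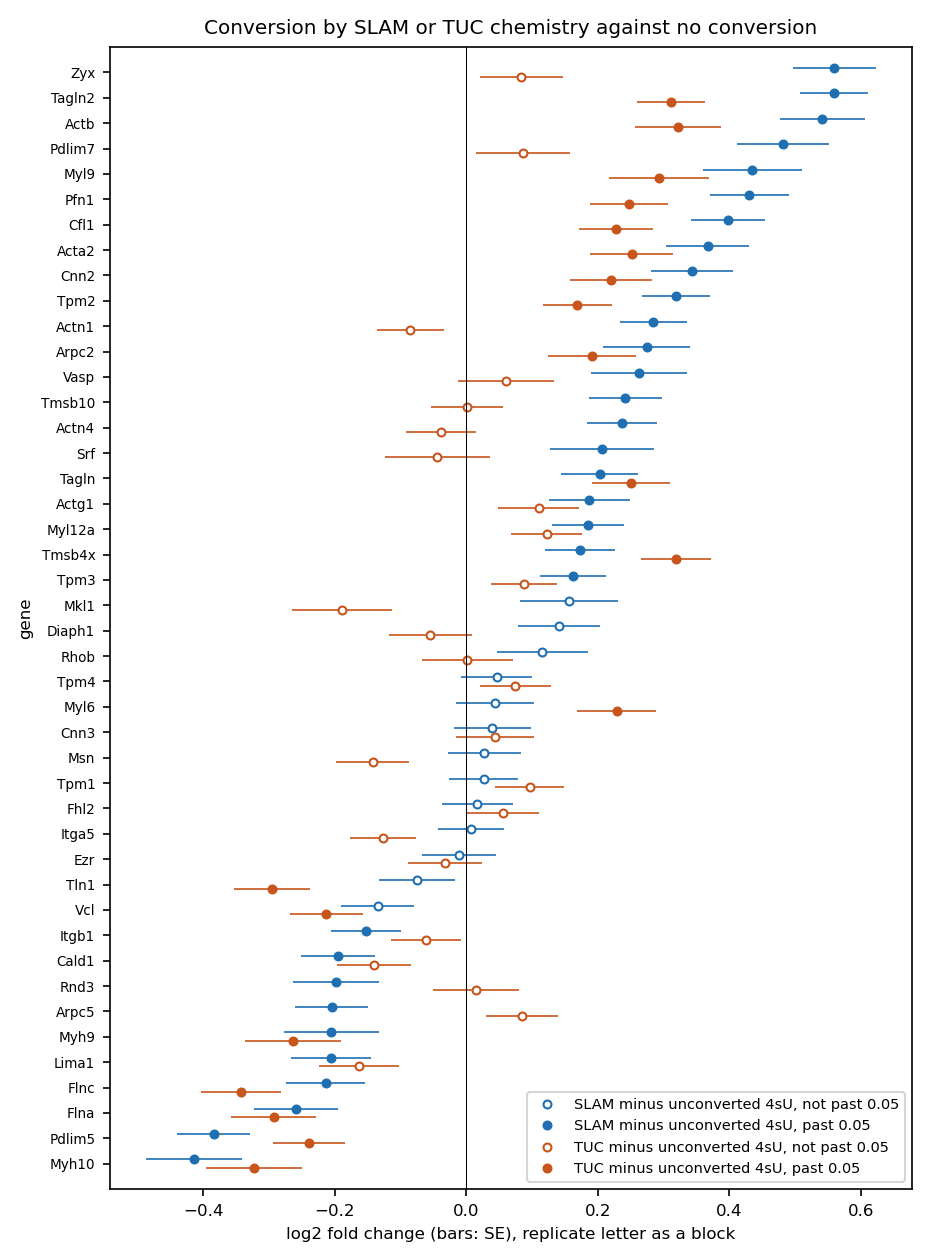
Log2 fold change with SE of SLAM (blue) and of TUC (orange) against unconverted 4sU for the 44 members with at least 3 CPM in untreated cells, from the blocked fit, with filled points at an adjusted p under 0.05. Zyx lies at 0.56 for SLAM and 0.08 for TUC, Tagln2 at 0.56 and 0.31, and Myh10 at the low end of both. The series share the unconverted 4sU libraries.

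Set directly against each other, the chemistries gave their largest differences for Zyx, Pdlim7, Actn1 and Mkl1. With the letter as a block 14 members were lower after TUC than after SLAM and 3 higher, against 10.1% and 10% of all genes (20.1% in either direction), and the median log2 difference was -0.08 for members and 0.00 for all genes. Zyx had 1055 and 1014 CPM in SLAM A and B and 699 and 792 in TUC, with no overlap and a log2 difference of -0.48 ± 0.0629 (SE) at an adjusted p of 0.000129. Actn1, a crosslinker of stress fibres, had 678 and 778 CPM in SLAM and 535 and 589 in TUC, without overlap, a difference of -0.37 ± 0.0510 (SE) at an adjusted p of 0.000178. Its relative Actn4 differed by -0.27. Both Srf (-0.25 ± 0.0797 (SE)) and Mkl1 (-0.34 ± 0.0757 (SE)) were lower after TUC, with differences for Srf of -0.47 in A and -0.02 in B and for Mkl1 of -0.33 in A and -0.36 in B. Mkl1 had 40.9 and 55.7 CPM in SLAM A and B and 32.5 and 43.5 in TUC, so the groups overlapped although each letter moved alike. Pdlim7 (-0.40), Tagln2 (-0.25), Tmsb10 (-0.24) and Actb (-0.22) were among the others lower after TUC. Higher were Arpc5, a subunit of the Arp2/3 nucleator, from 244 and 222 CPM in SLAM to 287 and 282 in TUC (0.29 ± 0.0550 (SE)), Rnd3 (0.21) and Myl6 (0.18). Differences in Acta2 (95% interval -0.24 to 0.01), Actg1 (-0.20 to 0.04), Tagln (-0.07 to 0.16), Vcl (-0.19 to 0.03), Myh9 (-0.20 to 0.08) and Rhob (-0.25 to 0.02) were not called. Without the block edgeR called 0 members, with 5 at an unadjusted p under 0.05 and 0 genes called in all; DESeq2 called Zyx and Actn4, both lower. The 17 calls became 14 without SLAM A, 25 without SLAM B, 7 without TUC A and 7 without TUC B, with Actn1, Actn4, Arpc5, Pdlim7 and Zyx called in all 4. Of 11 fibroblast markers, 6 were lower after TUC and 1 higher, and 2 of 3 nuclear RNAs were higher; their part in the members' differences was not tested.

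The shifts followed gene length, as they did across all genes. Across the 48 members the Spearman correlation of the log2 change with length was -0.70 for unconverted 4sU against untreated cells, -0.60 for SLAM and -0.76 for TUC against unconverted 4sU, beside -0.41, -0.51 and -0.63 across the 12218 genes. For TUC against SLAM it was 0.00 (all genes 0.03), and for B against A 0.55 (all genes 0.46). Each correlation is across genes measured in the same libraries, which are not independent replicates. Of the 24 members no longer than the median member (2928.5 bases), 16 rose and 1 fell after SLAM, where 32.7% and 5.24% of all genes of such length passed, and of the 24 longer ones 5 rose and 9 fell (10.9% and 33.3%). After TUC 11 of the shorter members rose and 0 fell (23.1% and 1.16%), and 1 of the longer rose and 7 fell (3.41% and 23.5%). For unconverted 4sU against untreated cells the shorter members gave 7 rises and 0 falls (11% and 3.51%), the longer 1 and 3 (4.04% and 19.7%). Some members departed from the line: Zyx (3188 bases) and Pdlim7 (3573 bases) rose after SLAM, and Myl9 (1128 bases) was higher in B, where 3 of the 24 shorter members were higher and 13 lower (12.1% and 46.7% of all genes of such length).

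**Figure D4:**
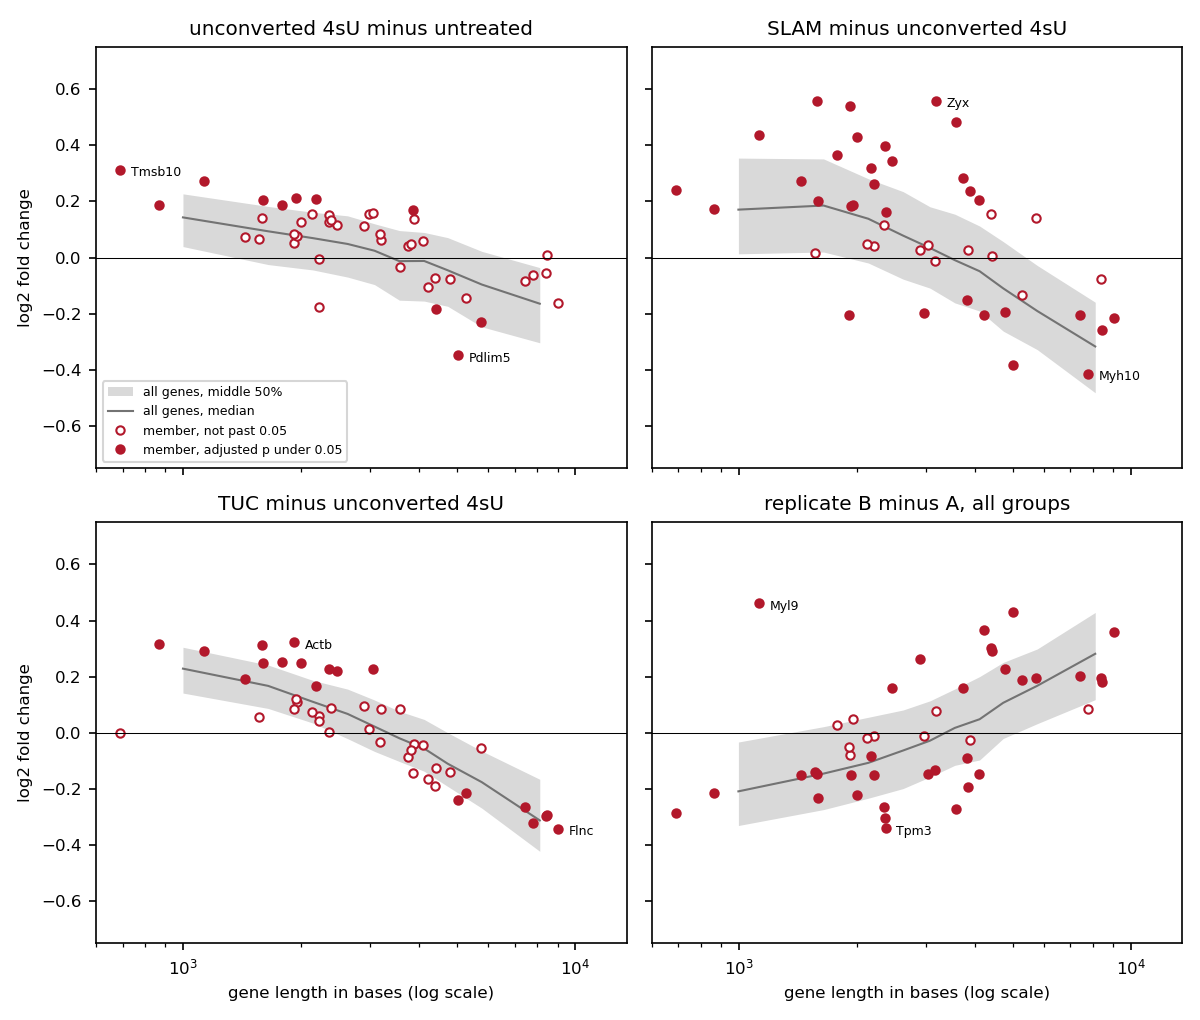
Log2 fold change against gene length in bases (log axis) in 4 comparisons, for the 44 members with at least 3 CPM in untreated cells (red, filled at an adjusted p under 0.05 with the letter as a block) over the median (line) and middle 50% (grey band) of all genes in bins of length. The highest and lowest of these members are named in each panel, and members and band both slope down for 4sU, SLAM and TUC and up for B against A.

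The second readout is the new-to-total ratio (NTR), taken here as the fraction of a gene's RNA made during the 2 h of labelling. It is the deposited posterior mode per gene and library, and a half-life follows from it if the cells were in steady state, which was assumed; no background was subtracted. NTR was tested for the 44 members with a mean of at least 100 reads, leaving out Mylk, Cnn1, Lmod1 and Fhl1. The median member had an NTR of 0.336 in SLAM and 0.346 in TUC, against 0.566 and 0.586 for all 10202 genes, and 33 of the 44 members lay below the median gene in SLAM. Background was low, with a median of 0.0134 in uridine and 0.0181 in unconverted 4sU libraries (all genes 0.0123 and 0.0189). Tagln2 had the highest background of these members, at 0.0730 and 0.0565 in uridine A and B and 0.0664 and 0.0634 in unconverted 4sU (its ratio after conversion was 0.308 and 0.386 in SLAM A and B).

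Smooth muscle actin, the thymosins, 2 myosin light chains and a tropomyosin had the lowest NTR among the tested members. Acta2 had an NTR of 0.0576 and 0.0773 in SLAM A and B and 0.0587 and 0.0787 in TUC A and B, the lowest of the set, at percentile 0.441 of all genes by its SLAM mean. Its half-lives came to 23.4 and 17.2 h in SLAM and 22.9 and 16.9 h in TUC, with no background subtracted. The background of Acta2 was 0.0165 and 0.0097 in uridine A and B and 0.0101 and 0.0095 in unconverted 4sU A and B. These half-lives assume steady state, while the level of Acta2 was called higher with unconverted 4sU than untreated (log2 change 0.19, blocked fit). Tmsb10 (0.106 ± 0.00714 (SD, n = 2) in SLAM), Myl6 (0.116 ± 0.0176 (SD, n = 2)), Myl9 (0.129 ± 0.00863 (SD, n = 2)), Tmsb4x (0.138 ± 0.0125 (SD, n = 2)) and Tpm2 (0.153 ± 0.0405 (SD, n = 2)) came next. Neighbours in that order overlapped: Myl6 in SLAM B, at 0.128, exceeded Myl9 in SLAM A, at 0.123. Tagln, another slow transcript, had 0.166 and 0.218 in SLAM A and B.

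Among the members with the highest NTR were Rnd3, Rhob and the SRF coactivator. Rnd3 had an NTR of 1.00 and 0.987 in SLAM A and B, at the upper limit of what 2 h of labelling can resolve. Mkl1 (0.967 ± 0.00120 (SD, n = 2) in SLAM), Rhob (0.965 ± 0.0153 (SD, n = 2)), Fhl2 (0.932 ± 0.00622 (SD, n = 2)), Itga5 (0.931 ± 0.0213 (SD, n = 2)) and Lima1 (0.805 ± 0.0313 (SD, n = 2)) followed. Srf had 0.774 and 0.830 in SLAM and 0.770 and 0.829 in TUC, which gives half-lives between 0.783 and 0.944 h, and Mkl1 gave 0.405 and 0.411 h in SLAM. By SLAM mean, Srf stood at percentile 70.1 and Mkl1 at percentile 91.7 of all genes.

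The actins differed among themselves. Actb had an NTR of 0.422 and 0.467 in SLAM A and B and Actg1 0.466 and 0.493, with half-lives of 2.53 and 2.20 h and 2.21 and 2.04 h, all far from the values of Acta2. Myh9 (0.469 and 0.519) had the higher NTR than its relative Myh10 (0.167 and 0.230), and Zyx (0.721 and 0.760) and Vcl (0.403 and 0.506) did not overlap. Per gene, NTR in SLAM was lower at higher untreated levels per kilobase (Spearman -0.50 across 44 members, -0.32 across all genes) and higher at greater length (0.34 and 0.32), correlations across genes that share libraries. NTR of members in SLAM and in TUC ranked them almost alike (Spearman 0.998).

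**Figure D5:**
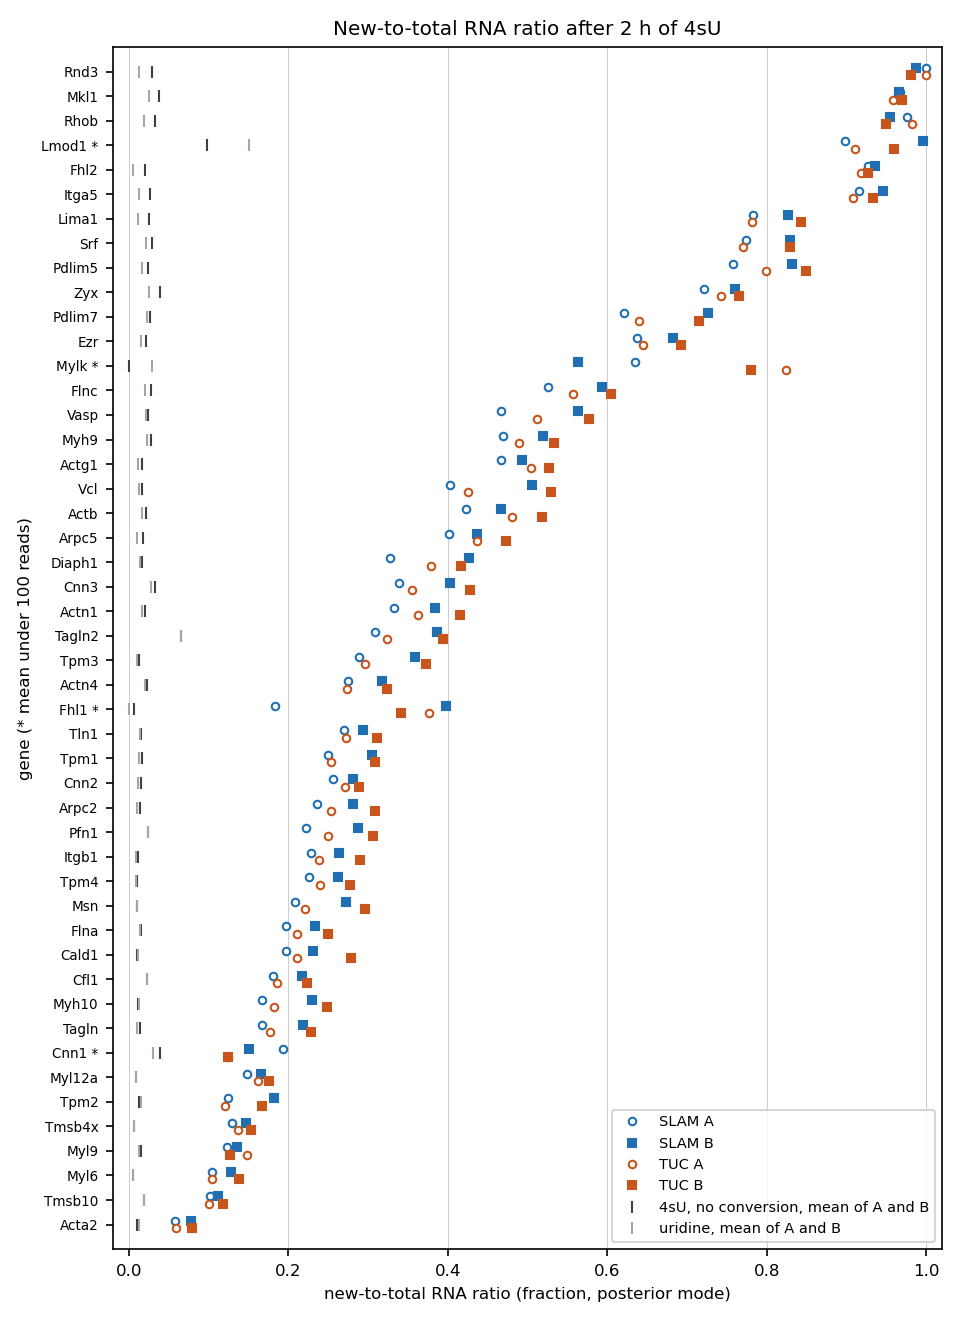
New-to-total ratio (0 to 1) of all 48 members in the SLAM (blue) and TUC (orange) libraries, replicate A open and B filled, with the mean of both unconverted 4sU libraries (black tick) and both uridine libraries (grey tick), and genes ordered by the SLAM mean. By the SLAM mean Acta2 lies lowest, at 0.0576 and 0.0773 in SLAM A and B, and Rnd3 highest, at 1.00 and 0.987. In SLAM B alone the starred Lmod1, at 0.996, lies above Rnd3. The starred genes had a mean under 100 reads.

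No member was called different in NTR between the chemistries. limma on log2(NTR / (1 - NTR)) called 0 of 44 members for TUC against SLAM (0.265% of all genes, 0.049% higher and 0.216% lower), 0 had an unadjusted p under 0.05, and the smallest adjusted p was 1; with the letter as a block it called 0 members and 0 genes, and 1 member had an unadjusted p under 0.05. For Actb the difference on that scale was 0.31, with an SE of 0.378 without the block and 0.0812 with it, where its adjusted p (limma) was 0.573. In both letters TUC exceeded SLAM for 31 of 44 members, where 47.4% of all genes did, and was below it for 4 (14.9%). The ranges of the chemistries did not overlap for 3 members, Actb, Actg1 and Arpc5, all higher in TUC, where 14.3% of all genes did not overlap. Actb had 0.422 and 0.467 in SLAM A and B and 0.480 and 0.518 in TUC A and B. B exceeded A within both chemistries for 40 of 44 members and for 77.7% of all genes. Weighted by level, new RNA made up 31.8% and 36.4% of the members' CPM in SLAM A and B and 33.2% and 38.1% in TUC. For Actb, NTR times CPM gave 2356 and 2259 CPM of new RNA in SLAM and 2190.2 and 2263 in TUC, while the pre-existing remainder was 3223 and 2576 CPM in SLAM and 2374 and 2106 in TUC. The new part thus overlapped between the chemistries and the remainder was higher in both SLAM libraries. For Zyx the new part was 761 and 771 CPM in SLAM and 519 and 606 in TUC, and the remainder 294 and 243 and 180.1 and 185 CPM, so both were higher in SLAM.

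Other genes of the same pathway moved in both directions, and all calls given for them come from the blocked fit. Without the block edgeR called 0 of the 65 reported here that are not members, with 6 at an unadjusted p under 0.05 for 4sU against untreated cells, 17 for SLAM, 4 for TUC and 7 for TUC against SLAM. Of 6 SRF cofactors tested, the MRTF inhibitor Scai fell with 4sU (-0.48), with SLAM (-0.88) and with TUC (-0.40), and Mkl2 (MRTF-B) fell with SLAM (-0.35) and TUC (-0.40). The ternary complex factor branch (9 genes) gave 2 rises, Egr3 (0.28) and Egr1 (0.27), and 1 fall, Mcl1 (-0.40), with 4sU, then 3 rises with SLAM, led by Junb (0.38) and Ier2 (0.36), and 1 fall with TUC, Egr3 (-0.20). Of 10 other MRTF-SRF targets tested, 2 rose and 2 fell with 4sU, among them Ankrd1 (0.60) and Filip1l (-0.37), 3 rose and 1 fell with SLAM (Tgfb1i1 0.36, Lpp -0.46), and 1 rose and 2 fell with TUC.

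Filament assembly and adhesion lists also moved in both directions. Among the 9 subunits of the Arp2/3 complex (2 of them members), 4 rose and 3 fell with SLAM, with Arpc3 at 0.28 and Actr2 at -0.36, and 3 rose and 1 fell with TUC. After TUC 4 subunits were higher than after SLAM and 0 lower (all genes 10% and 10.1%), including Arpc5l (0.29) and Actr3 (0.19). Focal adhesion genes (17) gave 0 rises and 5 falls with unconverted 4sU, 3 and 6 with SLAM and 0 and 5 with TUC; Itgav fell in all 3 (-0.27, -0.40 and -0.25), and these comparisons share the unconverted 4sU libraries. In the turnover and capping list (14) SLAM raised 4, among them Gsn (0.35), and lowered 6, among them Ssh2 (-0.51), and TUC raised 3 and lowered 2. Among the further crosslinkers, Fscn1, which bundles filaments in protrusions, rose with SLAM (0.58) and was lower after TUC than after SLAM (-0.44). The counts of all these lists stand beside 6.97% of all genes higher and 12.9% lower for 4sU against untreated cells, 20% and 21.6% for SLAM and 11.6% and 14.2% for TUC against unconverted 4sU.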

How the data were processed

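RNA-seq of 10 NIH-3T3 libraries was analysed from 1 deposited table. Per the submitters' processing notes, the tools were STAR 2.7.10b, Bowtie2 2.3.0 and cutadapt; the sources used here name no build, annotation, counting tool or strand setting. Expected counts for each gene and library, not scaled between libraries, were deposited per the file headers, and were rounded here. A fraction per gene was deposited as a posterior mode, per the file headers, which do not name it; it was taken as the NTR because it lies near 0 without conversion. The table also lists a length per gene, without saying which. Of the table's values per library, 24 columns were not used.

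After edgeR's filterByExpr 12218 genes stayed. TMM scaling and the quasi-likelihood test of edgeR 4.0.16 in R 4.3.3 used 1 term per group over all 10 libraries, with Benjamini-Hochberg adjustment over all genes and a threshold of 0.05. A second fit added the replicate letter as a block. The labels give every group an A and a B without saying what they share. Pairing was inferred from the data: taking B from A in each group gave profiles that correlated between all 10 pairs of groups, at r 0.584 to 0.690, and adding the letter lowered edgeR's common dispersion from 0.0187 to 0.00195. No source says that replicates were separate cultures, so the p-values reflect a spread that may be technical. Replicates were not copies of one library (chi-square per degree of freedom 36.9 to 74.7). limma 3.58.1 tested NTR, limited to 0.001 to 0.999, over genes with a mean of 100 reads. DESeq2 1.42.0, other scalings, other filters and fits without single libraries were alternatives. Half-life was 2 h times ln 2 over -ln(1 - NTR). Scripts were tested on simulated data.

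Members and pathway lists (Arp2/3 complex, SRF cofactors, SRF targets through ternary complex factors, other MRTF-SRF targets, focal adhesion, turnover and capping, crosslinkers) were chosen with earlier results of these data known. Some results are not reported here. The text names, per comparison, up to 8 rises and 8 falls among called members by size, always Srf, Mkl1, Actb, Actg1, Acta2, Tagln, Vcl, Myh9 and Rhob, the 6 highest and lowest members for levels and NTR, and up to 4 called genes per list; Tagln2, Zyx, Myh10 and Arpc5 in the NTR account were named after their values were seen. Promoter sequences are RefSeq's, GRCm38.p6; 47 members matched by symbol and Mkl1 by a synonym.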

Additional observations from a re-analysis of the deposited data

Results flagged for a closer look

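For 17 members the effect of conversion differed between the chemistries, as tested directly by TUC against SLAM in edgeR's quasi-likelihood fit with the replicate letter as a block (adjusted p under 0.05, 20.1% of all genes). Among adhesion and crosslinking proteins the log2 difference, TUC minus SLAM, was -0.48 for Zyx, -0.40 for Pdlim7, -0.37 for Actn1, -0.27 for Actn4 and -0.22 for Tln1. For the SRF pair it was -0.34 (Mkl1) and -0.25 (Srf). Actb differed by -0.22, and among genes that act on monomers, nucleation or the membrane the values were -0.24 for Tmsb10, -0.18 for Pfn1, -0.17 for Cfl1, -0.20 for Diaph1 and -0.17 for Msn. Tagln2 differed by -0.25. Higher after TUC were Arpc5 at 0.29, Rnd3 at 0.21 and Myl6 at 0.18. The sign was the same in both letters for all 17. The blocked fit called them on these same differences within letters, so that agreement is no separate support. Without the block edgeR called 0 of them (5 members had an unadjusted p under 0.05) and DESeq2 called 2, Zyx and Actn4.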

How the results depend on the processing

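The letter as a block decided the counts of members called, from 0 without it to 11 (4sU against untreated), 6 (4sU against uridine), 31 (SLAM against 4sU), 19 (TUC against 4sU) and 17 (TUC against SLAM), while uridine against untreated stayed at 0 and the NTR test at 0. In the same order, with the replicate block and RLE factors the counts were 16, 8, 31, 19 and 19, with the replicate block and library totals 14, 6, 31, 21 and 15, and in DESeq2 with the replicate block 16, 8, 30, 20 and 16; these 3 settings were chosen after seeing the data. DESeq2 without the block called 7 (SLAM against 4sU) and 2 (TUC against SLAM). Leaving out 1 library from the blocked fit gave 2 to 9, 1 to 2, 17 to 34 (18 without 4sU B), 4 to 12 (10 without 4sU B) and 7 to 25, with a lone library of a group assumed to vary like the other groups. RLE factors, library totals, no filter, a mean of 100 counts or more and the compared groups alone gave 0 in each of these comparisons without the block. For DESeq2 and the other scalings, filters and left-out libraries, shares of all genes are not given here. Their counts of members are therefore not set against the rest of the genes. B against A gave 35 members, 33 to 34 under other tools, scalings and filters and 32 to 36 without 1 library; with library totals 19 were higher and 15 lower in place of 16 and 19. For NTR, 27 genes passed in all, 0 with the block, 23 with a mean of 20 reads, 65 with 500 reads, and 0 on the linear scale or with a limit of 0.01. Without the block, leaving out 1 library turned the sign for 7 values, given with their lowest and highest over such fits. For SLAM against 4sU these were Flnc (-0.49 to 0.038), Lima1 (-0.48 to 0.052), Myh9 (-0.42 to 0.0044) and Srf (-0.016 to 0.42), turned without SLAM A, and Tpm3 (-0.018 to 0.36), turned without SLAM A and without 4sU B (-0.012). Myl9 in TUC against 4sU (-0.0062 to 0.56) turned without TUC B, and Cfl1 in TUC against SLAM (-0.37 to 0.0059) without SLAM A and without TUC B (0.0026). None of these was called without the block, and the cause was not tested. With 2 libraries per group, the median SE of a member in SLAM against 4sU was 0.0598 with the block and 0.139 without. For Lmod1, Mylk, Cnn1 and Fhl1, at 16 to 82 counts, SEs in the 6 comparisons of groups ran from 0.184 to 0.322 with the block and from 0.216 to 0.433 without, which limits what could be called for them.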
